A study of Homo sapiens with 2 samples.

Results

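The pericentromeric TCF12 ChIP peaks are the listed peaks whose summit lay inside the hg19 centromere gap or within 2 Mb of either of its edges, on the 18 chromosomes for which the rule gives a gap of 3 Mb. By position alone, 1636 of the 64251 listed peaks were members, or 2.55% of the table. All of them lay beside a gap and 0 inside one. There were 920 on the p side, the side toward the short arm, and 716 on the q side, toward the long arm. Chromosomes 13, 14, 15, 22, X and Y are not part of the rule.

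The samples came from Hep3B cells, a human hepatocellular carcinoma line, and the labels name neither a treatment nor a genetic change. The TCF12 ChIP group is 1 library precipitated with a TCF12 antibody, and the input group is 1 library without antibody. MACS, the peak caller, used 10254561 tags of the ChIP and 8862145 of the input, and it listed a peak wherever the p at a position passed 0.05. With 1 library per group there was no replicate and no test between groups, and the intervals given are exact 95% intervals that cover counting error only.

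TCF12, also called HEB, is a basic helix-loop-helix factor of the E protein family, which binds E-box sequence as homodimers or as heterodimers with other factors of this class. Centromeres are built on long arrays of alpha satellite, and the DNA beside them is rich in other satellites, segmental duplications and compact heterochromatin marked by trimethylated histone H3 lysine 9. In hg19 the arrays are represented by a gap of fixed length, and near-identical copies of the flanking sequence lie on several chromosomes. A read from such a copy can be placed at more than 1 position. Sequences and genes at the peaks were not analysed here, because an hg19 genome or annotation was not used.

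The first comparison asked whether the flanks of the gaps held more or fewer listed peaks than the chromosomes around them. With each flank counted as 2 Mb, the density was on average close to that of the surroundings, but single flanks held between 0 and 137 peaks. Counted over all 36 flanks of 2 Mb, there were 22.7 peaks per Mb (21.6 to 23.9). In 3 flanks, the q sides of chromosomes 1, 9 and 16, no peak was listed, and the first summit after the gap lay 18.04, 15.2 and 8.12 Mb away. On these chromosomes hg19 holds a further block of heterochromatin without sequence next to the gap. Over the 33 flanks with a member, the density was 24.8 per Mb (23.6 to 26.02), against 23.5 (23.3 to 23.7) over the rest of the same chromosomes. That is a ratio of 1.06. The length of the rest runs from its first to its last listed summit, while each flank counts in full. Over the length from the first to the last listed summit of each side, the flanks were at 27.6 per Mb.

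The flanks differed far more among themselves. The densest was the p side of chromosome 7, with 137 peaks or 68.5 per Mb (57.5 to 81.0), against 32.2 per Mb over the rest of that chromosome. Both sides of chromosome 20 followed, with 117 peaks on the p side and 113 on the q side, or 58.5 and 56.5 per Mb against 40.6. The q side of chromosome 2 held 105 peaks, 52.5 per Mb against 23.2. At the other end, the p side of chromosome 3 held 8 peaks, 4.00 per Mb (1.73 to 7.88) against 22.7. The q side of chromosome 6 held 11 peaks, 5.50 per Mb (2.75 to 9.84) against 26.4.

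**Figure D1:**
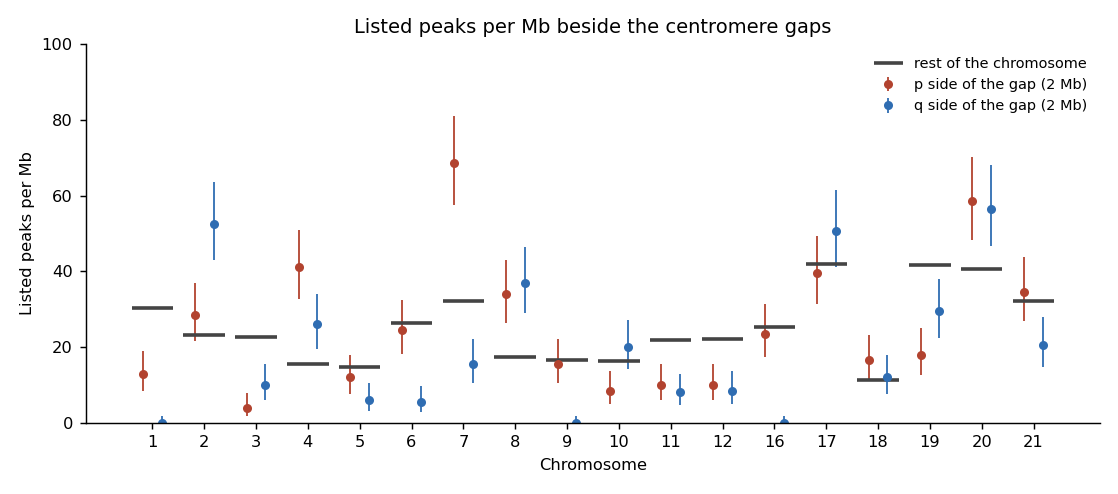
Listed peaks per Mb in the 2 Mb on the p side (red) and the q side (blue) of the centromere gap, by chromosome, with exact 95% Poisson intervals, and the density over the rest of the chromosome (black line). The p side of chromosome 7 stands highest at 68.5 per Mb, and the q sides of chromosomes 1, 9 and 16 are at 0.

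Taken by chromosome, the interval of the flanks lay above the density of the rest on 5 chromosomes (2, 4, 7, 8 and 20), below it on 7 (1, 3, 5, 6, 11, 12 and 19) and held it on 6. The flanks of chromosome 4 were the furthest above, at 33.5 per Mb against 15.5, a ratio of 2.16. Those of chromosome 8 were at 35.5 against 17.4, a ratio of 2.04. Those of chromosome 3 were the furthest below, with a ratio of 0.309. The other 2 Mb pieces of the same chromosomes, 1146 in all, varied as well. Of the 33 flanks, 5 had more peaks than at least 90% of the other pieces of their chromosome, 3 had more than at most 10% of them, and 0 had more than every other piece. The plot of peaks per Mb by chromosome shows both sides of the gap above the density of the rest on chromosomes 2, 4, 8, 18 and 20. Both were below it on chromosomes 1, 3, 5, 6, 9, 11, 12, 16 and 19. On chromosome 7 the p side was above it and the q side, at 15.5 per Mb, below.

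The second comparison concerned the height of the peaks. Pericentromeric peaks more often held many ChIP reads at the summit, and more often sat on a raised input background. The median was 5 reads at the summit, both in the members and in the rest of the same chromosomes. At least 10 reads were reached by 97 members, 5.93% (4.83 to 7.19), against 1.14% (1.05 to 1.23) of the rest. At least 15 reads were reached by 22 members, 1.34% (0.845 to 2.03), against 0.168% (0.136 to 0.206). Without the p sides of chromosomes 2 and 4 these shares were 3.74% (2.84 to 4.83) for 10 reads and 0.601% (0.275 to 1.14) for 15.

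The background moved with the reads. MACS takes as background the highest of a genome-wide level, here 0.763 reads, and of the input at the summit, in 1000 bp and in 10000 bp around it. The genome-wide level rests on the genome size given to MACS, which was the preset for mouse, and the larger human size would lower it. The median background was 1.00 in the members and 0.789 in the rest. A background of at least 2 reads was found at 14.5% of the members (12.8 to 16.3) and at 6.65% of the rest (6.44 to 6.86). The background was above the genome-wide level at 63.6% of the members (61.2 to 65.9) and at 51.3% of the rest (50.9 to 51.7). By chromosome, this share was higher in the flanks on 13 of 18 chromosomes. On chromosome 19 the direction was the opposite, with 37.9% in the flanks and 73.1% in the rest.

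The recovered backgrounds were fine enough to tell which level had set each of them. A whole number of reads is the input at the summit itself, while a multiple of 0.161 is input in 1000 bp and a multiple of 0.0161 is input in 10000 bp. Every listed peak could be placed this way, with a tolerance of 0.0005, although a multiple of 0.161 can also come from the wider window. The input at the summit set the background of 26.6% of the members (24.5 to 28.8), against 23.4% (23.1 to 23.8) of the rest. The 1000 bp window set it in 20.2% against 16.8%, and the 10000 bp window in 16.8% against 11.1%. In 27 members, 1.65% (1.09 to 2.39), the background was set by at least 4 input reads at the summit itself, against 0.258% (0.217 to 0.304) of the rest. Where a wider window set the background, the input at the summit is not known, so both shares are lower bounds for such stacks. The tallest of these stacks held 39 input reads. The flanks differed in which level was highest. On the p side of chromosome 4 the summit itself set 37.8% of the backgrounds and the 10000 bp window 14.6%. On the p side of chromosome 7 and the q side of chromosome 20 the order was the opposite, with 27.0% and 23.9% set at the summit and 35.8% and 37.2% by the 10000 bp window.

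**Figure D2:**
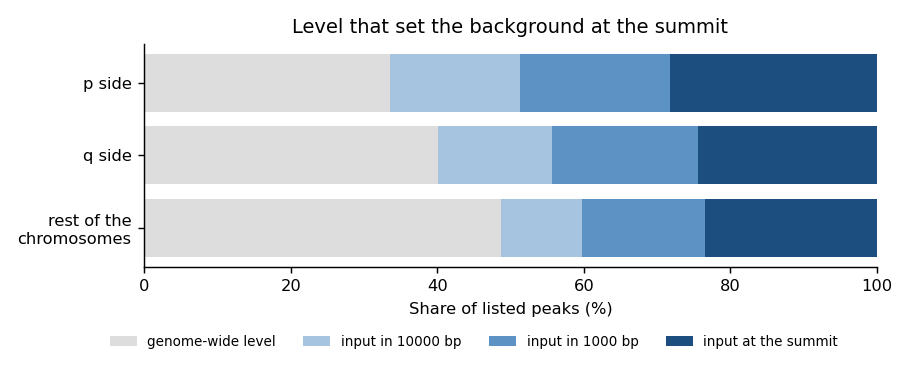
Share of peaks (%) whose background was set by the genome-wide level (grey), the input in 10000 bp (light blue), the input in 1000 bp (mid blue) or the input at the summit (dark blue), for members on the p side (n = 920), on the q side (n = 716) and the rest of the same chromosomes (n = 54725). The grey share is 33.6% on the p side, 40.1% on the q side and 48.7% in the rest.

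Height relative to the background was compared next. The scaled reads divided by the background had a median of 4.53 in both groups. Its 90th percentile was 6.05 in the members and 5.96 in the rest. The shared median is the ratio of 4 reads at the genome-wide background, so it says little about taller peaks. Peaks of 3 to 5 reads made up 57.2% of the members and 70.1% of the rest. The fold enrichment that MACS lists adds 1 to both terms, and its median was 2.64 in the members and 2.53 in the rest. Split by reads, the members had a lower median ratio at 6 to 9 reads and slightly higher ones above that. At 6 to 9 reads the median background was 1.20 in the 604 members and 1.01 in the other peaks, and the median ratio 4.70 and 5.19. At 10 to 14 reads the median background was 2.64 in the 75 members and 2.58 in the 533 other peaks, and the median ratio 3.74 and 3.69. At 15 reads or more the median background was 6.0 in the members and 6.80 in the others, and the median ratio 2.59 and 2.53. Members were slightly longer, with a median of 207 bp against 194, and 32.6% had the minimum length, which MACS set to the fragment length of 161 bp, against 37.1%.

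The third comparison used the q of the table, which is corrected over the whole genome. A q under 1 was reached by 21 members, 1.28% (0.796 to 1.96), against 0.346% of all listed peaks and 0.281% (0.239 to 0.329) of the rest of the same chromosomes. The members made up 2.903% of the peaks on these chromosomes and 12.0% of those with a q under 1. At a q of 0.05 or lower there were 9 members, 0.550% (0.252 to 1.04), against 0.0887% of all listed peaks and 0.0585% of the rest. Without the p sides of chromosomes 2 and 4 there were 3 of 1497, 0.200% (0.0413 to 0.585), an interval that holds both of these shares. A −log10 q of at least 5 was found in 4 members, 0.244%, against 0.0187% of all listed peaks. Without these p sides it was found in 2, 0.134% (0.0162 to 0.482). A −log10 p of at least 3 was reached by 23.5% of the members and by 18.7% of the table. Among peaks with a like number of reads the shares at a q under 1 lay closer together. At 6 to 9 reads, 0.166% of the members and 0.267% of the rest reached it. At 10 to 14 reads, 17.3% of the members and 15.4% of the rest had a q under 1, and at 15 or more reads 31.8% and 32.6%. At stricter levels the members with 15 or more reads had the larger shares, 27.3% (10.7 to 50.2) against 19.6% (12.0 to 29.1) at a q of 0.05 or lower, and 18.2% (5.19 to 40.3) against 7.61% (3.11 to 15.1) at a −log10 q of at least 5, with intervals that overlap. Peaks on unplaced scaffolds and alternative haplotypes, outside the rule, were higher still, with 7.63% (5.21 to 10.7) at a q under 1 and 19.6% with at least 10 reads.

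**Figure D3:**
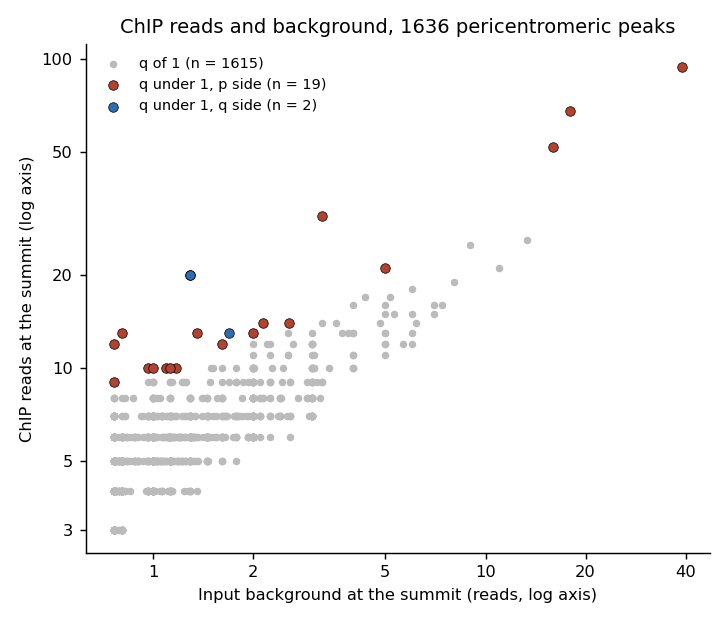
ChIP reads against the background at the summit, both on log axes, for the 1636 pericentromeric peaks, with a q of 1 in grey and a q under 1 in red (p side) or blue (q side). Tall peaks lie toward high background, up to 94 reads over a background of 39.0, and the points of chromosomes 17 and 20 at 20 reads coincide.

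The 21 members with a q under 1 lay in 8 of the flanks, 5 each on the p sides of chromosomes 2 and 4, 3 each on the p sides of 17 and 21, 2 on that of 7, and 1 each on the p side of 20 and the q sides of 10 and 20. The p sides thus held 19 of 920 members at this level, 2.07% (1.25 to 3.21), and the q sides 2 of 716, 0.279% (0.0338 to 1.01). At least 10 reads were found at 9.35% (7.54 to 11.4) of the members on p sides and at 1.54% (0.769 to 2.73) on q sides. A background of at least 2 reads was found at 19.0% on p sides and 8.66% on q sides, so that the input differed between the sides as well. Without chromosomes 2 and 4, the p sides had 9 of 781 members at a q under 1, 1.15% (0.528 to 2.18), and 5.76% (4.23 to 7.63) with at least 10 reads. The interval for q then overlapped that of all q sides, while the interval for reads did not. No test of the difference between sides was made.

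The gap of chromosome 4 runs from 49660000 to 52660000 under the rule. The strongest member, by −log10 q, was on this chromosome from 49289064 to 49289342, with its summit 371 kb from the gap on the p side. It held 31 reads (21.1 to 44.0). Scaled to the input this was 26.8, and the background was 3.22, which is 20 input reads in 1000 bp. Its fold enrichment was 6.59 and its −log10 q was 8.51, the 4th largest of the table. This peak stood well above its background, which was itself raised.

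Other tall peaks of chromosome 4 were tall in the input too. The peak from 49318839 to 49319030 held 94 reads (76.0 to 115), the most of all members, over 39 input reads at the same summit. Its scaled reads were 2.08 times the background, and its −log10 q was 2.84. The peak from 49516835 to 49517008 held 68 reads over 18 input reads, a ratio of 3.26, with a −log10 q of 6.92. Its neighbour from 49515528 to 49516254 held 52 reads over 16 input reads, a ratio of 2.81. The fifth peak of this flank, from 49593704 to 49594010 and 66.1 kb from the gap, differed from these, with 13 reads over a background of 0.805 and a ratio of 13.96.

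These peaks belonged to a crowded stretch. Within 500 kb of the gap, the p side of chromosome 4 held 46 of its 82 members, with a median of 8 reads and a median background of 2.00. The other 36 members, further out, had a median of 5 reads, a median background of 0.805 and at most 8 reads. All 18 members of this flank with at least 10 reads were within the 500 kb. The densest 200 kb stretch of all flanks was here, with 35 members between the summits 49173143 and 49331341, or 221 per Mb against 41.0 over the flank.

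The second densest stretch was on the p side of chromosome 2, with 32 members between the summits 91677449 and 91875421. They had a median of 10 reads and a median background of 2.54, and the tallest held 25 reads over 9 input reads. The median background of the whole flank, 2.00, was the highest of all flanks, and 91.2% of its 57 members lay above the genome-wide level, against 46.5% over the rest of the chromosome. Its strongest member, from 91828563 to 91828764, held 13 reads over a background of 1.35, with a −log10 q of 1.86. A further 3 held 10, 10 and 14 reads, with −log10 q values of 0.327, 0.134 and 0.241. The peak from 91844540 to 91844961 held 21 reads over 5 input reads at the summit, with a −log10 q of 0.454. Between 699 and 1831 kb from the gap this flank had no listed peak, a stretch of 1132 kb and the widest spacing between neighbouring members in the 33 flanks that held any. Whether the build holds sequence there was not checked.

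**Figure D4:**
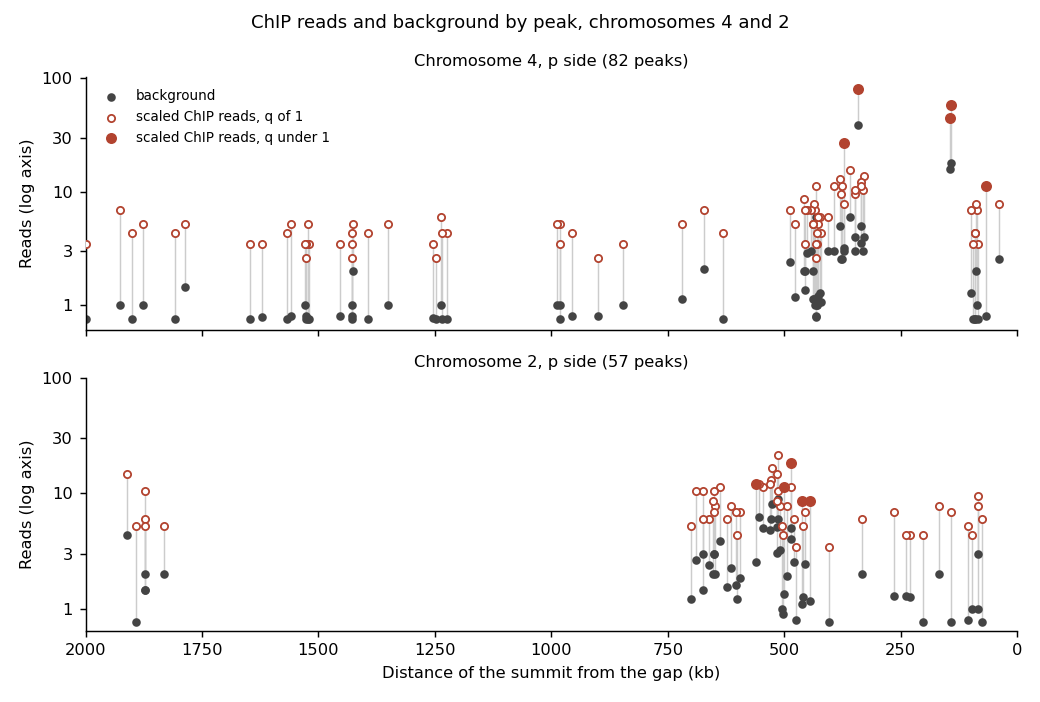
Scaled ChIP reads (circles, filled red where q was under 1) and background (black points), on a log axis, for each peak on the p side of the gap of chromosomes 4 (82 peaks) and 2 (57 peaks), by distance of the summit from the gap in kb. High reads and raised background share the same stretches, and the 94-read peak of chromosome 4 stands over a background of 39.0.

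On chromosome 17 the members with a q under 1 were long peaks. The peak from 21548611 to 21550480 on the p side was 1870 bp long, the longest of the whole table, and held 20 reads (12.2 to 30.9) over a background of 1.29. Its fold enrichment reached 7.99 and its −log10 q 7.45. A further peak began within 5 kb of its end, from 21555377 to 21556127, with 12 reads over 1.61 and a −log10 q of 0.505. The third, from 21348047 to 21348740, held 10 reads over 0.966. All 3 members of this flank with a q under 1 were long, the shorter ones at 694 and 751 bp. None of these had more than 10 input reads in its 1000 bp. Among the 79 members of the flank there were also tall peaks over raised input that did not reach a q under 1. Examples held 15 reads over a background of 5.31, 13 over 3.70 and 11 over 5.0.

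On chromosome 20 the strongest member lay on the q side, from 29652914 to 29653625, 283 kb from the gap. It had the same values as the longest peak of chromosome 17, with 20 reads over 8 input reads in 1000 bp and a −log10 q of 7.45. It was 1 of the 2 members at a q under 1 on a q side. The other, on chromosome 10 from 42648120 to 42648333, held 13 reads over a background of 1.69, equal to 105 input reads in 10000 bp, with a −log10 q of 1.04. No peak of the rest of chromosome 10 reached a q under 1. On the p side of chromosome 20 the member at this level, from 26078483 to 26078837, held 9 reads at the genome-wide background, with a −log10 q of 0.444.

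Chromosome 7 combined the densest flank with modest peaks. Its strongest member, on the p side from 57905544 to 57906232 and 144 kb from the gap, held 12 reads at the genome-wide background, a ratio of 13.6, with a −log10 q of 3.09. No other member of this flank held more reads, and the second with a q under 1, from 57699257 to 57699778, held 10 reads over 1 input read. Of its 137 members, 88.3% had a background above the genome-wide level, against 58.8% over the rest of the chromosome. On the q side, the peak from 61176584 to 61176819 held 21 reads over 11 input reads and had a q of 1.

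The p side of chromosome 21 had 3 members at a q under 1, all more than 1.4 Mb from the gap. The strongest, from 9867809 to 9868201, held 14 reads over a background of 2.14, equal to 133 input reads in 10000 bp, with a −log10 q of 0.831. The others held 13 reads over 2 input reads and 10 reads over 1.13. Of the 69 members of this flank, 78.3% were above the genome-wide level, against 56.0% over the rest of the chromosome.

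On the other 11 chromosomes no member reached a q under 1, which 0.346% of all listed peaks did. They held 26 to 142 members each, too few at that share for 0 to stand out on any single one of them. Their strongest members held between 6 and 9 reads, with a fold enrichment between 3.51 and 4.00. The flanks of chromosome 8 were an example of many weak peaks. They held 142 members at 35.5 per Mb, the tallest with 9 reads, and 0 of them had a q under 1. Over the rest of chromosome 8, 5 of 2425 peaks had one, so 0 among 142 members is near that share.

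Height in the ChIP alone did not give a low q. Of the 22 members with at least 15 reads, 15 had a q of 1. On chromosome 10, the peak from 42365750 to 42365934, 116 kb from the gap, held 26 reads over a background of 13.3, equal to 826 input reads in 10000 bp, and its ratio was 1.69. On chromosome 20, the peak from 25848579 to 25848778 held 16 reads over 7 input reads at the same summit.

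The last comparison followed the peaks by distance from the gap. Density was lowest next to it, with 47 members in the first 0.1 Mb, or 14.2 per Mb (10.5 to 18.9). It was 30.3 per Mb (26.7 to 34.3) between 0.25 and 0.5 Mb, and 27.8 (25.3 to 30.5) between 1.5 and 2 Mb. Tall peaks had another profile. At least 10 reads were held by 12.0% of the members between 0.25 and 0.5 Mb, by 8.56% between 0.5 and 1 Mb, and by 1.96% between 1.5 and 2 Mb. A q under 1 was reached by 13 of the 396 members within 0.5 Mb, 3.28% (1.76 to 5.55), and by 8 of 1240 further out, 0.645% (0.279 to 1.27).

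The p sides of chromosomes 2 and 4 carried much of this. Without them, at least 10 reads were held by 5.42% between 0.25 and 0.5 Mb and by 1.60% between 1.5 and 2 Mb, and a q under 1 was reached by 1.52% (0.497 to 3.52) within 0.5 Mb and 0.513% (0.189 to 1.11) further out, intervals that overlap. In the next band outward, from 2 to 4 Mb, 3 of 1743 peaks had a q under 1, 0.172% (0.0355 to 0.502), and 53.9% lay above the genome-wide level, near the 51.3% of the rest.

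**Figure D5:**
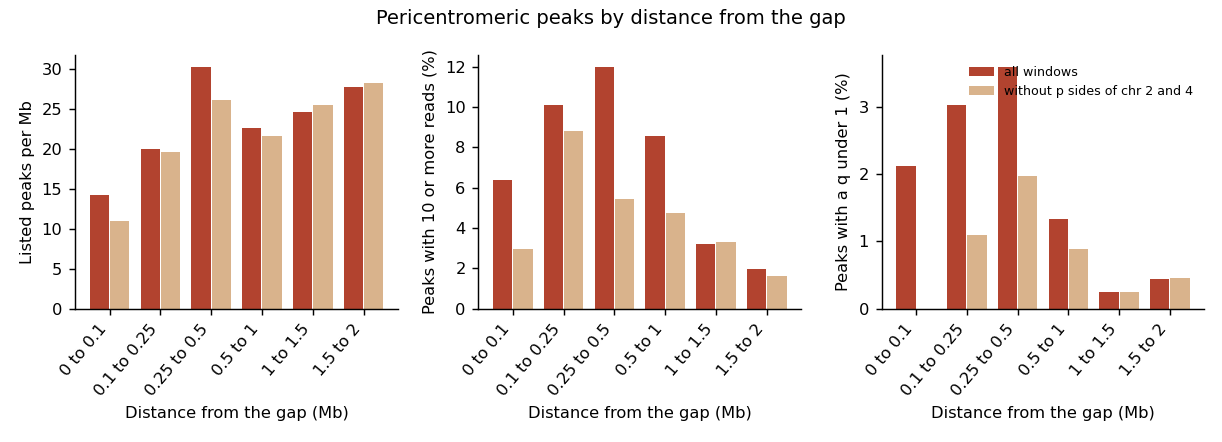
Listed peaks per Mb, the share of peaks with 10 or more ChIP reads (%) and the share with a q under 1 (%), by distance from the gap in Mb, for all flanks (red) and without the p sides of chromosomes 2 and 4 (tan). The share with 10 or more reads is 12.0% at 0.25 to 0.5 Mb in all flanks and 5.42% without these p sides.

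In 16 flanks a member lay within 100 kb of the gap, and the single nearest member of each of these flanks held 3 to 9 reads over a background of 0.763 to 2.58. Of all 47 members in the first 0.1 Mb, 3 held at least 10 reads, and 1 of them had a q under 1, the peak of chromosome 4 at 66.1 kb described above. The closest was on chromosome 12, from 37860202 to 37860404, with its summit 249 bp from the q edge of the gap and 5 reads over a background of 1.45. On chromosome 7, the summit 10.9 kb from the q edge had 7 reads over 2 input reads.

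At the threshold of the rule, the 3 members furthest from a gap lay 1998767 to 1999411 bp from it and held 4 reads each. The 3 peaks just outside lay 2000810 to 2001292 bp away and held 3, 4 and 6 reads. Neighbouring members were closer together than other peaks of the same chromosomes, with a median spacing of 14092 bp against 18538, and 8.36% (7.05 to 9.82) of neighbouring summits were within 1000 bp, against 5.81% (5.62 to 6.01).

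Between the sides of the gap, a raised input background moved with the numbers of tall peaks and of peaks with a q under 1. It did so too on the p sides of chromosomes 2, 4 and 21. Its part in these numbers was not tested. The p side of chromosome 17 had 3 of 79 members at a q under 1 without such a rise. There 65.8% of the members lay above the genome-wide level, against 65.7% over the rest of the chromosome. Other flanks had a raised background with smaller shares at a q under 1. On the p side of chromosome 7 and the q side of chromosome 20, 88.3% and 91.2% of the members lay above the genome-wide level. A q under 1 was reached there by 2 of 137 and 1 of 113 members, against 5 of 57, 5 of 82 and 3 of 69 on those 3 p sides. By distance, the median background was 1.00 both between 0.25 and 0.5 Mb and between 1.5 and 2 Mb. The share of members above the genome-wide level was 70.0% in the first of these bands and 62.3% in the second. It was 64.7% between 0.5 and 1 Mb and 59.5% between 1 and 1.5 Mb. Peaks of 1 library are not replicates of each other.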

How the data were processed

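Hep3B chromatin was sequenced as 1 TCF12 ChIP library and 1 input library, grouped by their labels. Per the submitters' processing notes, hg19, Bowtie2 2.0, Picard 2.19.0 and MACS2 2.1.2 were used. The filtering of reads that align to several places is not given in the sources used here. The deposited table has the pileup, a signal at each summit scaled to the input by 0.864. It also has the authors' fold enrichment, a ratio with 1 added to both terms, and the −log10 of p and q as deposited. The MACS header gives a p cutoff of 0.05, a fragment length of 161 bp, 1 tag kept per position and an effective genome size of 1.87e+09 bp, the preset for mouse. The header says that q is not calculated, but the deposited column holds values and was used as it stands.

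Reads were the pileup divided by the scale, whole within 0.01 for 100% of the peaks. Backgrounds were recovered from reads and fold enrichment, and recomputing the Poisson p gave the listed −log10 value within 5.26e-05. MACS truncates scaled reads before this p, so neighbouring read numbers can share a p. The rest of the same chromosomes spans the first to the last listed summit, less the flanks and the stretches of over 3 Mb with no listed summit. Intervals were exact Poisson for counts and Clopper-Pearson for shares. The code was tested on simulated data. Python 3.11.15, scipy 1.17.1 and pandas 2.3.3 were used.

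The members, the regions to be named and the comparisons were chosen with earlier results of these data known. The regions named were the 20 members with the largest −log10 q, the strongest of each chromosome and those nearest to a gap within 100 kb. The 21st member with a q under 1, members with at least 15 reads and the longest peak were added after their values were seen. Alternatives were other flank widths, overlap in place of summit, a stricter p or q, merged summits, other lengths, no pseudocount and left-out chromosomes. The gene table at hand is for GRCh38 and was not used.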

Additional observations from a re-analysis of the deposited data

How the results depend on the processing

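No paired analysis was possible because the ChIP and the input were sequenced once each. The count of 1636 members became 770 with flanks of 1 Mb, 4185 with 5 Mb and 384 under a minimum −log10 p of 3, and stayed within 1.5 times otherwise. The density of 22.7 per Mb became 21.4 with flanks of 1 Mb, 5.33 under that minimum, 20.9 with summits within 1 kb merged and 27.6 over the length from the first to the last listed summit of each side. Chosen after seeing the data, leaving out flanks with no listed peak gave 24.8. The share with a q under 1, 1.28%, became 2.34% with flanks of 1 Mb, 0.597% with 5 Mb, 5.47% under that minimum and, at a −log10 q of at least 5, 0.244%. In the rest of the same chromosomes, 0.281% became 0.282%, 0.287%, 1.51% and 0.0128%, in the same order. Without the p sides of chromosomes 2 and 4, chosen after seeing the data, the share of the members was 0.735%. Without these 2 chromosomes as a whole it was 0.821% (0.410 to 1.46), above the 0.233% of the rest without them. The median fold enrichment of 2.64 became 3.43 under that minimum, below the 3.46 of the rest, which turned the order of the groups, and 4.53 without the pseudocount, equal to the rest. The share above the genome-wide background, 63.6%, became 66.5% with flanks of 1 Mb, 57.5% with 5 Mb and 76.8% under the minimum. In the rest this share was 51.5%, 51.2% and 70.2% under these settings. The human genome size was not run, because input levels under the genome-wide level are not kept in the table. Why these values moved was not tested beyond the smaller or larger sets of peaks that the settings leave. At this depth the weakest members rest on 3 reads.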

Other observations

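Chromosomes 13, 14, 15 and 22, whose short arms have no sequence in hg19, begin in the table next to their centromeres. In the first 2 Mb from the first listed summit there were 40, 68, 97 and 63 peaks, each chromosome taken in this order. Per Mb, the intervals lay above the density over the rest of the chromosome on chromosomes 13 (14.3 to 27.2 against 12.4), 14 (26.4 to 43.1 against 16.2) and 15 (39.3 to 59.2 against 36.0), and below it on chromosome 22 (24.2 to 40.3 against 43.9). On chromosome 15, 87.6% of these peaks had a background above the genome-wide level, against 53.1% further along, and 1 had a q under 1. On chromosome 13 the order was the opposite, with 35.0% against 47.2%. The tallest peak of the 4 stretches held 18 reads, on chromosome 15. These stretches were chosen after the results for the other chromosomes were seen.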
